A study of Bos taurus with 10 samples.

Results

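Bovine embryos obtained by in vitro fertilization (IVF) were compared with adult bovine brain on a human expression array. The comparison rests on 4 of the 10 arrays of the series: 3 arrays titled as IVF embryos, whose RNA the labels call a pool, and the 1 array titled as brain, whose source is adult brain. The other 6 arrays, 1 each of heart, kidney, liver, lung, muscle and spleen, served to show whether a difference lay on the brain side or the embryo side. The labels name no treatment, genotype or breed, and give neither the embryos' stage and number nor the brain region and the age of the animal beyond adult. The arrays were chosen by title alone, and the probe sets were all those with values that are not manufacturer's controls, 10186 in all.

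A cattle embryo that grows in culture divides, switches on its own genome and forms a blastocyst. Its outer layer, the trophectoderm, is a pumping epithelium that will give the placenta, and its inner cells separate into epiblast, the source of the body, and hypoblast, the source of the yolk sac lining. Adult brain holds neurons, which signal through synaptic vesicles, receptors and ion channels, together with oligodendrocytes that make myelin, astrocytes, microglia and blood vessels. Most of its cells have stopped dividing. Both tissues are known to use SOX2, a transcription factor of epiblast cells and of neural progenitors and glia.

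Because the array was designed for human transcripts, bovine RNA was read through human probe sets, and human symbols are used throughout. Arrays were quantile normalised, which gives all 10 the same distribution of values, and a level below is a normalised intensity. Levels of different probe sets were not compared, since probes match bovine transcripts unequally well. A difference is the mean of the 3 embryo arrays minus brain on the scale log2(intensity + 71), so that a positive value means higher in embryos, and ± is its standard error; the offset understates the difference of dim probe sets. A probe set was tested if either side lay above the common median of 145.7, and called at an adjusted p under 0.05 (limma, Benjamini-Hochberg) with a difference of at least 2-fold. The spread behind every p came from the 3 embryo arrays alone, may be technical only, and was assumed to hold for the single brain array as well.

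The arrays differed in ways other than tissue. Median deposited intensities were 123.7, 160.4 and 221 on the embryo arrays, 183.3 on the brain array and 99.2 to 153.2 on the others. The 5' to 3' signal ratio of GAPDH, a measure of how complete the RNA is, was 0.288 for brain, the lowest of the 10 arrays, and 0.461 to 0.488 for the embryos. For ACTB the ratio was 0.756 in brain and 0.566 to 0.728 in the embryos. The part of RNA integrity in the differences below was not tested. Over all 10186 probe sets the rank correlation between embryo arrays was 0.831 to 0.944, that of embryos with brain 0.381 to 0.474 and that of embryos with the other 6 tissues 0.373 to 0.662. In bulk RNA, fewer cells of a type cannot be told apart from less RNA per cell.

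Embryos and brain differed at many of the probe sets tested, and more of these were brighter in brain. Of 6876 tested probe sets, 1108 (16.1%) were lower and 848 (12.3%) higher in the embryos. With 1 probe set per gene, the brighter over both sides, 774 of 4815 genes (16.1%) were lower and 504 (10.5%) higher. These shares are the background for the counts over the tested genes of each list below. With no filter on dim probe sets, 737 of 6732 measured genes (10.9%) were lower and 475 (7.06%) higher; this background applies to the counts over all measured genes of a list. The filter mattered because 1803 probe sets passed it through brain alone and 1784 through the embryos alone. The median of a list is taken over its tested genes unless stated otherwise, so it rests on the filter too. Requiring signal on at least 3 of the 10 arrays gave 580 lower and 819 higher calls and turned the share of higher calls from 43.4% to 58.5%.

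The 2 directions had different shapes across the other tissues. Among the 1108 lower probe sets, brain exceeded all 6 other adult tissues for 776 (70%), against 22.5% of all tested probe sets, and exceeded them at least 4-fold for 211. For 216 of the 1108 (19.5%) the embryos were below all 7 adult tissues, against 5.69% of all tested. Among the 848 higher probe sets, the embryos exceeded all 7 tissues for 466 (55%), against 13.3% of all tested. For 383 (45.2%) brain was below the 6 others, against 13.6% of all tested, so that a gene called higher in the embryos was often one that brain read weakly. These counts use the same embryo and brain values as the calls and describe them.

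**Figure D1:**
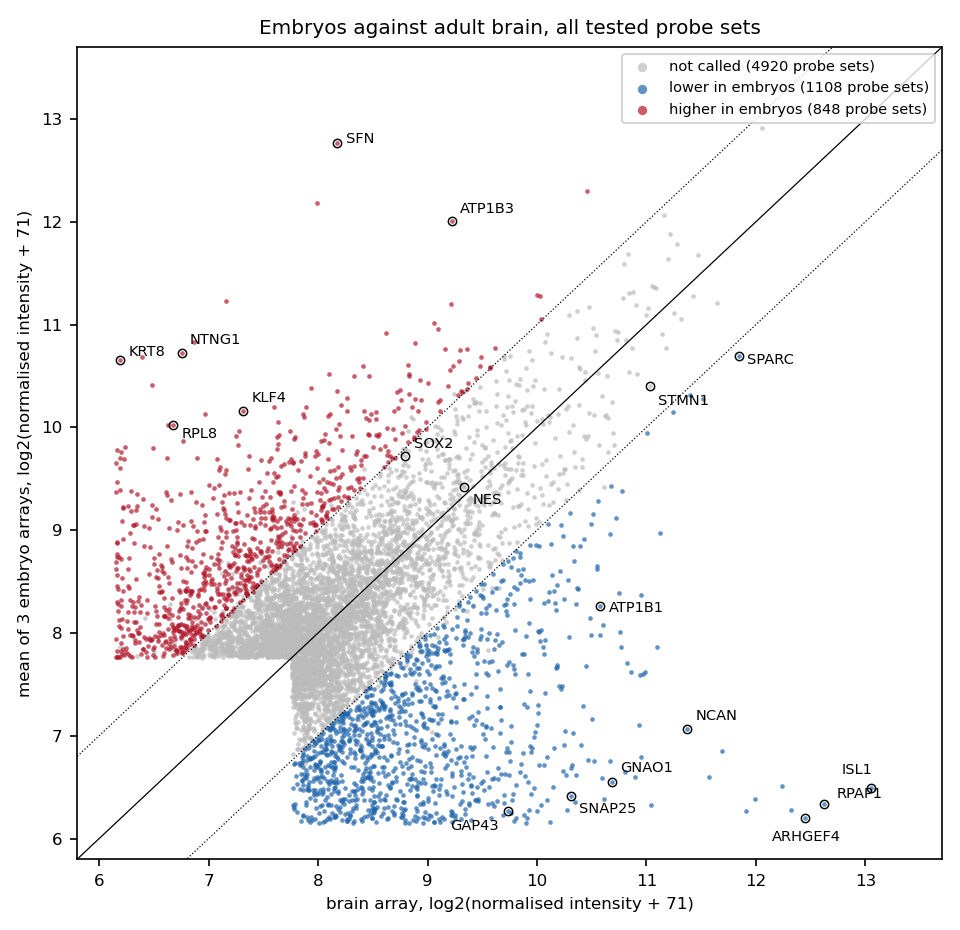
Mean of the 3 embryo arrays (vertical axis) against the brain array (horizontal axis) for 6876 tested probe sets, both as log2(normalised intensity + 71), with the line of equality, dotted lines at 2-fold and circles on named genes. The 1108 lower calls lie below the line of equality, with ISL1, RPAP1 and ARHGEF4 farthest out along the floor of the embryo axis. The 848 higher calls lie above it, up to KRT8 at the floor of the brain axis and SFN, read at 218 in brain.

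The neuronal and keratin markers analysed followed the labels, and the other markers of brain cells did so in part. SNAP25, a membrane fusion protein of the synapse, was read at 14.3, 16.7 and 11.8 on the embryo arrays, at 1196 in brain and at 0.22 to 8.05 in the 6 other tissues. Embryos and brain did not overlap, and the difference was -3.89 ± 0.14 (adjusted p = 3.46e-05); a second SNAP25 probe set, at 257 in brain, gave -1.97 ± 0.16. KRT8, a keratin of simple epithelia, was read at 1927, 1491 and 1278 on the embryo arrays and at 2.21 in brain, a difference of 4.46 ± 0.26 (adjusted p = 0.000159). Its partner KRT18 was read at 463, 365 and 386 against 0.44 in brain (2.73 ± 0.20). Of the markers of brain cells, SYT1, NEFL, GAP43, GRIA2, AQP4, SLC1A2 and SLC1A3 were brightest in brain among the 7 adult tissues. MBP was too on its tested probe set, at 177 in brain and 17.3 to 40.5 elsewhere. Its untested probe set read 133 in brain and 97.8 to 194 elsewhere. GFAP, the myelin genes MOG and MOBP and the endothelial gene PECAM1 were not brightest in brain. Nor were the microglia and macrophage genes AIF1, CSF1R, C1QA, C1QB and TYROBP. POU5F1, NANOG, CDX2, SOX17 and S100B were not analysed here.

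Many genes of the presynaptic terminal were lower in the embryos than in brain. Of 31 measured genes of synaptic vesicles and release, 22 were tested, 17 of them through the brain array alone, and 17 were lower in the embryos (limma; 17 of all 31 with no filter), with a median difference of -2.19 over those tested against 0 over all genes. No gene of the list was higher, at an unadjusted p under 0.05 either. ERC2, a scaffold of the zone where vesicles dock, was read at 15.8, 15.2 and 15.1 on the embryo arrays and 915 in brain (-3.51 ± 0.12). SYT1, the calcium sensor of release, was read at 32.3, 36.3 and 32.6 in the embryos and 996 in brain (-3.35 ± 0.16, adjusted p = 7.50e-05). For both genes, as for SNAP25, the 3 embryo arrays lay close together and far below brain. Among the 17 genes, picked here after their values were seen, were the vesicle proteins SYP (-2.9 ± 0.19), SYN1 (-1.85 ± 0.13) and SV2A (-2.14 ± 0.22) and the vesicular glutamate transporter SLC17A7 (-2.04 ± 0.21). A filter of 3 bright arrays would have given 4 lower calls and 1 higher call in this list.

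Some receptors and postsynaptic proteins were lower in the embryos. Of 30 measured genes 19 were tested, 6 were lower and none higher (limma; 7 lower of all 30 with no filter; 2 higher and 9 lower at an unadjusted p under 0.05), and the median difference was -0.25. GRIA2, an AMPA type glutamate receptor subunit, was read at 2.19, 2.5 and 0.71 on the embryo arrays, at 479 in brain and at no more than 1.74 in any other tissue (-2.92 ± 0.08, adjusted p = 3.46e-05). NRXN3, a presynaptic adhesion protein, showed the same separation, with 0.16, 0.62 and 1.14 in the embryos and 526 in brain (-3.06 ± 0.08). GABBR2, a subunit of the metabotropic GABA receptor, was read at 24.7, 17.1 and 21 against 603 in brain (-2.88 ± 0.12). All 3 genes were under 35 in every adult tissue other than brain.

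Ion channels and pumps of excitable membranes were also lower in the embryos. Of 30 measured genes 24 were tested, 17 through brain alone, and 17 were lower and 0 higher (limma; 16 lower of all 30 with no filter; 0 higher at an unadjusted p under 0.05), with a median of -1.73. KCNK1, a potassium leak channel, was read at 142, 134 and 104 on the embryo arrays and 1953 in brain (-3.36 ± 0.20). SLC12A5, the chloride extruder of mature neurons, was read at 49.4, 40.8 and 50 in the embryos and 1069.6 in brain (-3.28 ± 0.18). CACNB2, an accessory subunit of calcium channels, was read at 22.6, 18.1 and 17.8 in the embryos and 534 in brain (-2.74 ± 0.11). SLC12A5 stayed under 57 in the other tissues, while KCNK1 reached 327 and CACNB2 129 there. With a filter of 3 bright arrays, 3 channel genes would have been called lower.

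The neuronal cytoskeleton and axon list was the largest of the neural lists. Of 64 measured genes 62 were tested, 45 through brain alone; 44 were lower and 1 higher (the same counts over all 64 with no filter), and the median was -1.93. NCAN, a proteoglycan of the matrix around neurons that astrocytes and neurons secrete, had the largest difference of the list, with 62.4, 72.5 and 55.7 on the embryo arrays and 2580.1 in brain (-4.3 ± 0.18, adjusted p = 5.79e-05). OPCML, a cell adhesion protein anchored in the neuronal membrane, was read at 11.2, 5.38 and 19.3 in the embryos and 1021 in brain (-3.72 ± 0.15). GAP43, a protein of growing axon endings, was read at 7.33, 8.05 and 2.71 in the embryos and 783 in brain (-3.47 ± 0.11). Another GAP43 probe set, not tested, read 97.9, 165 and 175 in the embryos and 56.4 in brain. A further untested one read 55.1, 53.0 and 47.5 in the embryos and 75.6 in brain. The microtubule protein MAP1B was read at 116, 118 and 90.2 against 1127 in brain (-2.75 ± 0.20). The only higher call was NTNG1, netrin G1, an adhesion protein of axons. NTNG1 was read at 1998, 1425 and 1503 on the embryo arrays and at 37 in brain (3.97 ± 0.24, limma adjusted p = 0.000179). It was read at no more than 75.7 in any other tissue. A filter of 3 bright arrays would have given 11 lower calls and 1 higher call in this list.

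Intermediate filaments differed by family, and some tubulins were lower in the embryos. The neurofilaments NEFL, NEFM and NEFH were lower in the embryos, with differences of -2.6 ± 0.17, -2.95 ± 0.18 and -2.11 ± 0.10, and brain read them at 607, 629 and 348. The keratins KRT8 and KRT18, given above, and the nuclear lamin LMNB1 (1.3 ± 0.23) were the 3 filament genes called higher, against 5 lower among 13 tested. That is 23.1% higher and 38.5% lower, against 10.5% and 16.1% of all genes. Among 10 tested tubulins 3 (30%) were lower, against 16.1% of all genes, and 0 higher (limma, and also 0 higher at an unadjusted p under 0.05). TUBB2A was read at 15.6, 15.2 and 11.5 in the embryos and 525 in brain (-2.81 ± 0.10), TUBA1A at 161, 228 and 168 in the embryos and 726 in brain (-1.64 ± 0.22), and TUBA4A at 154, 140.2 and 103 in the embryos and 466 in brain (-1.41 ± 0.22). The LMNB1 call was lost without the second embryo array (adjusted p = 0.0510).

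Calcium and G protein signalling genes of neurons were lower in 29 of 40 tested cases, 31 of the 40 having passed through brain alone. The same number was lower among all 46 measured genes with no filter, 0 were higher (limma; 0 at an unadjusted p under 0.05), and the median was -1.96. GNAO1, the G protein alpha subunit most abundant in brain, was read at 0.38, 21.9 and 53.2 on the embryo arrays and at 1578 in brain (-4.14 ± 0.33). Its embryo values ranged widely, all under the highest of the other tissues, and a second probe set gave -3.04 ± 0.12. CAMK2N1, an inhibitor of the calcium/calmodulin kinase CaMKII, was read at 38, 22.6 and 21.4 in the embryos and 1241 in brain (-3.74 ± 0.18), and CHN1, a regulator of the GTPase Rac in axons, at 11.2, 1.06 and 25.2 in the embryos and 805 in brain (-3.4 ± 0.19).

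Secreted peptides and their granules gave 9 lower and 0 higher genes of 15 tested (limma; 8 lower of all 17 measured with no filter; 0 higher at an unadjusted p under 0.05), with a median of -1.52. SST, the peptide somatostatin of inhibitory interneurons, was read at 13.9, 9.47 and 5.28 on the embryo arrays and 594 in brain (-3.05 ± 0.11, adjusted p = 3.84e-05). CHGB, a granule matrix protein, was read at 13.5, 9.66 and 15.8 in the embryos and 444 in brain (-2.62 ± 0.10). PAM, the enzyme that amidates peptides, was read at 45.9, 54.5 and 37.9 in the embryos and 544 in brain (-2.4 ± 0.16); it reached 577 in another adult tissue, so that it did not mark brain alone. Under a filter of 3 bright arrays the lower calls would have numbered 10 for signalling genes, 2 for peptide and granule genes and 1 for receptors.

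**Figure D2:**
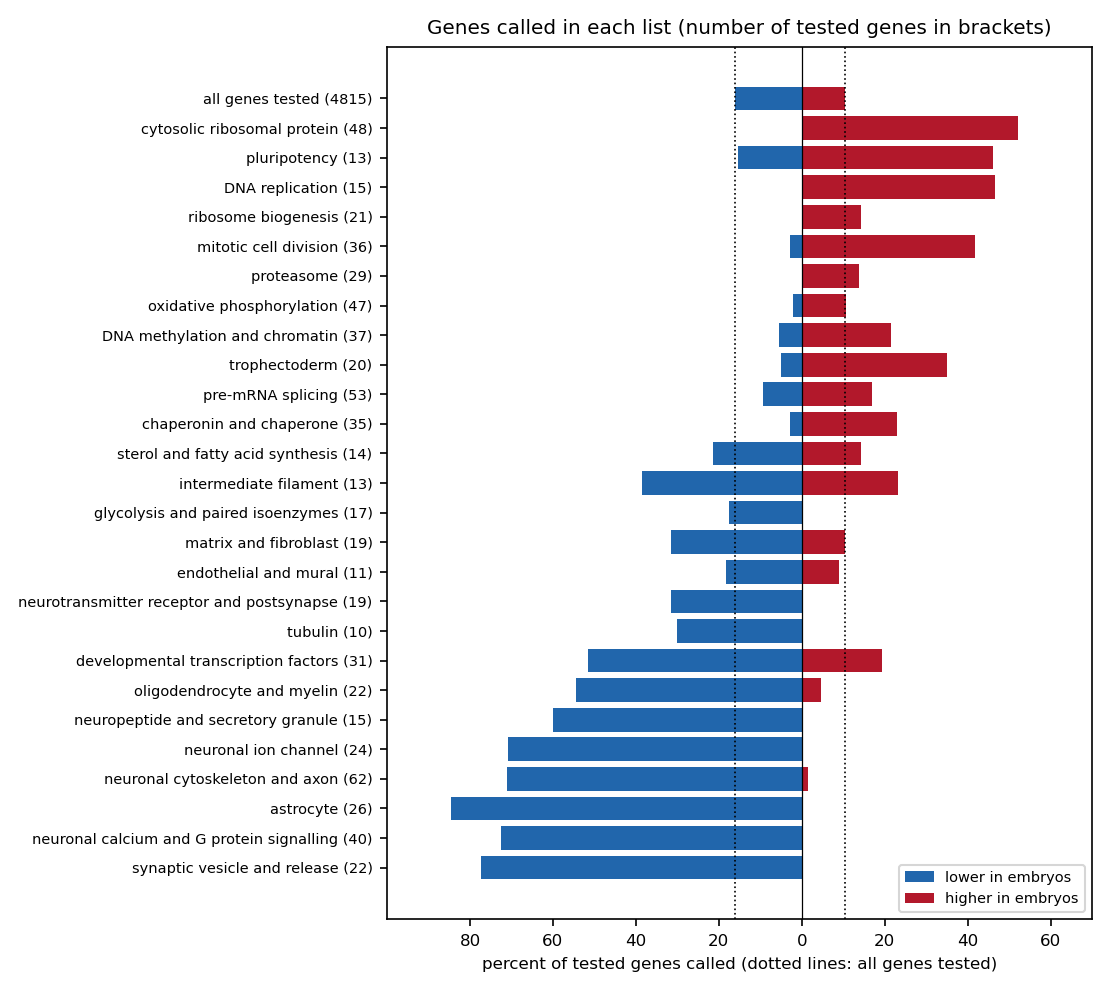
Percent of the tested genes of each list called lower (to the left) or higher (to the right) in the embryos, with the number of tested genes in brackets and lists of at least 10 tested genes shown; dotted lines mark the 16.1% and 10.5% of all 4815 genes. The neural lists extend to the left, up to 84.6% of 26 astrocyte genes, and the ribosomal protein, replication, pluripotency and mitotic lists to the right, up to 52.1% of 48 ribosomal protein genes.

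Astrocyte genes were also lower in the embryos. Of 32 measured genes 26 were tested, 19 through brain alone; 22 were lower and 0 higher (limma; 21 lower of all 32 with no filter; 1 higher at an unadjusted p under 0.05), with a median of -1.95. AQP4, the water channel of astrocyte endfeet, was read at 25.3, 31 and 40.5 on the embryo arrays and 1200.4 in brain (-3.62 ± 0.18, adjusted p = 8.93e-05). SPARCL1, a matricellular protein, was read at 7.14, 56.4 and 57.4 in the embryos and 1345 in brain (-3.71 ± 0.34). DDAH1, which breaks down inhibitors of nitric oxide synthase, was read at 37.4, 24 and 20.7 in the embryos and 1156 in brain (-3.64 ± 0.18). The other tissues read DDAH1 at 52.8 to 842, all above the embryos, so that it did not mark brain alone. The glutamate transporters SLC1A2 and SLC1A3 were lower, with differences of -2.78 ± 0.09 and -1.9 ± 0.08. GFAP, the filament that defines astrocytes in most work, did not follow: its probe set read 197, 136 and 121 on the embryo arrays, 126 in brain and 85.1 to 233 elsewhere, and gave 0.16 ± 0.25 (adjusted p = 0.636). On that probe set brain lay within the range of tissues that lack astrocytes.

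Oligodendrocyte and myelin genes were mixed. Of 27 measured genes 22 were tested, 15 through brain alone. Among those tested 12 were lower and 1 higher (9 and 1 of all 27 with no filter). The median was -1.10 over those tested and -0.49 over all 27. GPM6B, a membrane protein of glia that neurons also make, was read at 84.1, 56 and 62.6 on the embryo arrays and 1883 in brain (-3.82 ± 0.20). SOX10, the transcription factor of the oligodendrocyte lineage, was read at 1.78, 6.3 and 2.52 in the embryos and 309.8 in brain (-2.35 ± 0.08), and PTGDS, a prostaglandin synthase of the brain's lining and glia, at 111, 163 and 133 in the embryos and 1088 in brain (-2.5 ± 0.21). MBP, myelin basic protein, was read at 35.5, 42.7 and 40.8 in the embryos and 177 in brain (-1.17 ± 0.10), and its second probe set did not pass the filter. MOG, a protein of the outer myelin surface, went the other way, with 242, 288 and 259.7 on the embryo arrays and 80.3 in brain (1.14 ± 0.19). MOG read 5.07 to 269.8 in the other tissues, with liver, lung and spleen at the embryos' level, and its call was lost without the second embryo array (adjusted p = 0.0534). A filter of 3 bright arrays would have given 9 lower calls among astrocyte genes and 7 among oligodendrocyte genes.

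Marker genes of immune cells were not called, and those of vessels were called at about the share of all genes. Of 17 measured microglia and macrophage genes 5 were tested and 0 called in either direction (limma; 2 lower and 0 higher at an unadjusted p under 0.05), and the summed level of the 17 was 1655 in brain, 1356 to 1513 in the embryos and 5980 in spleen. The complement gene C1QB was read at 1.61, 0.27 and 9.07 in the embryos and 10.4 in brain, against 1471 in spleen. Of 21 measured endothelial and mural genes 11 were tested; 2 (18.2%) were lower and 1 (9.09%) higher, near the 16.1% and 10.5% of all genes, and the summed level was 4841 in brain and 2478 to 2841 in the embryos. Without PDE2A the sum was 2939 in brain and 2446 to 2813 in the embryos. PDE2A, a phosphodiesterase that neurons also make, was read at 64.9, 31.6 and 27.1 on the embryo arrays and 1902 in brain (-4.15 ± 0.25), RGS5 of pericytes at 35.2, 30.2 and 60.3 in the embryos and 336 in brain (-1.86 ± 0.18), and CALD1 of smooth muscle at 457, 492 and 510.4 in the embryos and 130.3 in brain (1.47 ± 0.18). The part of vessels in the lower calls was not tested.

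Some matrix genes were lower in the embryos. Of 19 tested, 7 of them through brain alone, 6 were lower (31.6%, against 16.1% of all genes). The 2 higher (10.5%) matched the 10.5% of all genes. COL3A1, a fibrillar collagen, was read at 30.7, 48.7 and 40.8 on the embryo arrays and 318 in brain (-1.81 ± 0.14), although brain itself was below every other adult tissue, which read 799 to 2035. FBLN1 (-1.96 ± 0.15) and TIMP3 (-1.61 ± 0.14) were also lower. FN1, fibronectin, and TIMP1, a protease inhibitor, were higher in the embryos: FN1 was read at 896, 761 and 680.1 against 181 in brain (1.75 ± 0.21) and TIMP1 at 523, 451 and 481 against 72 in brain (1.96 ± 0.19). With arrays scaled to a common median, 3 matrix genes in place of 6 were called lower. The blood list had 3 measured genes, and HBB, beta globin, was called in both directions by its probe sets, with 1.91 ± 0.25, 1.39 ± 0.24 and -1.02 ± 0.12.

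Some trophectoderm genes were among the largest higher calls, while most of the list was not called. Of 22 measured genes 20 were tested, 10 through the embryos alone; 7 were higher and 1 lower (the same counts over all 22 with no filter), and the median was 0.41. SFN, the epithelial 14-3-3 protein sigma, had the largest higher call under the normalisation used here, with 6224, 8428 and 6224 on the embryo arrays, 218 in brain and 139 to 571 in the other tissues (4.59 ± 0.25, adjusted p = 0.000125). With the values as deposited the SFN difference was 3.46, below the 4.5 of KRT8. The other 2 SFN probe sets gave 4.07 ± 0.41 and 3.93 ± 0.19. The transcription factors of trophectoderm identity followed, TFAP2C at 339, 353 and 365 on the embryo arrays and 6.26 in brain (2.45 ± 0.18), and GATA3 at 181, 167 and 228 in the embryos and 45.7 in brain (1.17 ± 0.21). A second TFAP2C probe set read 259, 275 and 28.5 on the embryo arrays and 19.5 in brain and was not called (1.31 ± 0.75, adjusted p = 0.221), the third embryo array lying apart from the other 2. LGALS3, the lectin galectin 3, was read at 573, 649 and 412 against 18.2 in brain (2.77 ± 0.27), picked here after its value was seen.

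The beta subunits of the sodium pump, which fold and place its catalytic alpha subunit, differed in opposite directions. ATP1B3 was read at 3779, 4181 and 4181 on the embryo arrays, at 525 in brain and at 140.5 to 667 elsewhere (2.79 ± 0.18, adjusted p = 0.000235). ATP1B1 was read at 218, 291 and 205 on the embryo arrays, at 1457 in brain and at 553 to 1539 elsewhere (-2.32 ± 0.23, adjusted p = 0.00104), and a second probe set gave -2.29 ± 0.13. For ATP1B3 the embryos exceeded every adult tissue, and for ATP1B1 they fell below every one. The opposite calls of ATP1B1 and ATP1B3 held in all the alternatives tried.

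**Figure D3:**
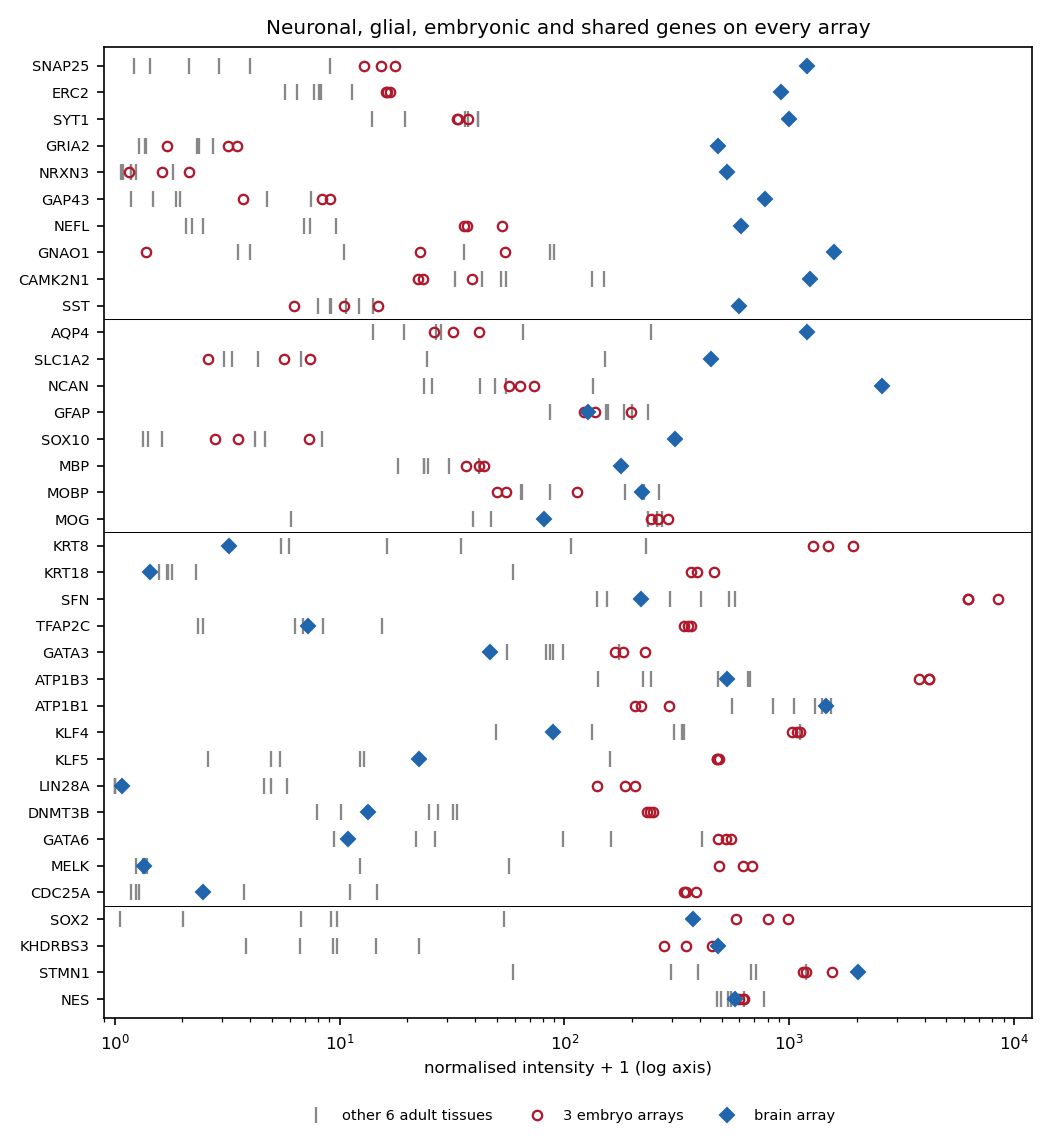
Normalised intensity + 1 (log axis) of named genes on every array, from top to bottom neuronal genes, glial genes, embryonic genes with both sodium pump beta subunits, and genes read on both sides; open circles are the 3 embryo arrays, the diamond is brain and ticks are the other 6 tissues. Brain stands alone for SNAP25, NRXN3 and GRIA2, the embryos stand alone for KRT18, TFAP2C and LIN28A, GFAP and NES overlap across arrays, and SOX2 and KHDRBS3 are read in both embryos and brain but not elsewhere.

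Some regulators of pluripotency were higher in the embryos. Of 18 measured genes 13 were tested, 7 through the embryos alone. Among those tested 6 (46.2%) were higher, against 10.5% of all genes. The 2 lower (15.4%) lay near the 16.1% of all genes. With no filter 5 were higher and 2 lower of all 18. The median was 0.93 over those tested and 0.45 over all 18. KLF4 was read at 1078, 1120.1 and 1032 on the embryo arrays and 88.2 in brain (2.85 ± 0.17, adjusted p = 0.000167), though 1 other adult tissue reached 1113. KLF5 was read at 487, 478 and 476 in the embryos and 21.6 in brain (2.57 ± 0.17), and DNMT3B, a methyltransferase that sets new DNA methylation, at 231, 246 and 239.7 in the embryos and 12.4 in brain (1.89 ± 0.18). DNMT3A, its relative, was not called, at 278, 232 and 136 against 137 in brain (0.42 ± 0.33, adjusted p = 0.346), named after its value was seen. LIN28A, which blocks maturation of let-7 microRNAs, was read at 185, 205 and 138 on the embryo arrays and 0.08 in brain (1.79 ± 0.21). Probe sets annotated to POU5F1 relatives, which share sequence with POU5F1 itself, were all dim in brain: that of POU5F1P3 read 679, 611 and 518 on the embryo arrays and 1.87 in brain (3.2 ± 0.21), and which of the copies was read cannot be told apart.

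The paired oncogenes MYC and MYCN went opposite ways. MYC was read at 20.7, 50.5 and 63.3 on the embryo arrays and 495 in brain (-2.31 ± 0.24, adjusted p = 0.00137), and brain exceeded the highest other tissue, at 142. MYCN was read at 317, 414 and 393 on the embryo arrays, 107 in brain and 0.09 to 32.6 elsewhere (1.32 ± 0.21, adjusted p = 0.00602). STAT3, the other lower gene of the list, was near the 2-fold limit (-1.01 ± 0.21) and lost its call without any one of the 3 embryo arrays, with differences of -0.93 to -1.10 and adjusted p of 0.0120 to 0.0553.

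The hypoblast and germ cell lists were small. GATA6, the hypoblast transcription factor, was read at 547, 479 and 523 on the embryo arrays and 9.91 in brain (2.86 ± 0.18), with heart next at 409. CTSV, a lysosomal cysteine protease, was read at 650.0, 536 and 553 in the embryos and 27.5 in brain (2.72 ± 0.20), though another adult tissue reached 548. With FN1 these made 3 higher genes of 8 tested (37.5%, against 10.5% of all genes). SPARC (-1.15 ± 0.20) and FGFR2 (-1.47 ± 0.26) were the 2 lower ones (25%, against 16.1% of all genes). With no filter the same counts came from 13 measured genes. PDGFRA, another hypoblast marker, was not called on either probe set (-0.21 ± 0.18 and 0.39 ± 0.35). SPARC is a secreted glycoprotein that was bright on both sides, at 1685, 1718 and 1386 in the embryos and 3608 in brain, and lost its call with arrays scaled to a common median (adjusted p = 0.0714) and with the 4 arrays normalised alone, where the difference was -0.82. FGFR2, a fibroblast growth factor receptor, lost its call without the second embryo array (adjusted p = 0.0549). Of 5 tested oocyte and germ cell genes 2 were higher (40%, against 10.5% of all genes). DDX4, the germ cell RNA helicase Vasa, was read at 631, 362 and 269 against 0.73 in brain (2.71 ± 0.41). CTAG2, a cancer testis antigen, was read at 699, 516 and 588 against 7.28 in brain (3.09 ± 0.22).

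Many genes of cell division and replication were higher in the embryos. Of 44 measured mitotic genes 36 were tested, 18 through the embryos alone. Among those tested 15 were higher and 1 lower (14 and 1 of all 44 with no filter). The median was 0.72 over those tested and 0.30 over all 44. MELK, a kinase of dividing cells, was read at 623, 685 and 484 on the embryo arrays and 0.35 in brain (3.21 ± 0.24, adjusted p = 0.00037). CKS2, a subunit of cyclin dependent kinases, was read at 484, 655 and 459.9 in the embryos and 3.42 in brain (3.01 ± 0.24), and PTTG1, securin, which restrains the protease that separates sister chromatids, at 414, 490.1 and 474 in the embryos and 8.12 in brain (2.74 ± 0.19). SPC25, a kinetochore protein, was the only lower call, at 40.9, 45.5 and 50.5 on the embryo arrays and 221 in brain (-1.32 ± 0.12). In all, 10 of the 36 differences were negative. The summed level of the 44 genes was 7665 in brain and 13098 to 13702 in the embryos, and 5552 to 8404 in the other tissues.

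Replication genes gave 7 higher and 0 lower of 15 tested (limma; the same counts over all 19 measured with no filter; 1 lower at an unadjusted p under 0.05), with a median of 0.82. RFC4, which loads the sliding clamp, was read at 497, 419 and 473 on the embryo arrays and 10.04 in brain (2.72 ± 0.19). DUT, which keeps uracil out of DNA, was read at 836, 1156 and 1133 in the embryos and 201 in brain (2.02 ± 0.24), and PCNA, the clamp itself, at 346, 374 and 293 in the embryos and 64.6 in brain (1.59 ± 0.20). Without the second embryo array 4 replication genes in place of 7 were called, and likewise 4 with the deposited values.

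Chromatin genes were called in both directions. Of 37 tested genes 8 (21.6%) were higher and 2 (5.41%) lower, against 10.5% and 16.1% of all genes. The median was 0.42 over those tested and 0.19 over all 42 measured with no filter. Without the second embryo array 3 in place of 8 were higher. EZH2, the catalytic subunit of the Polycomb complex that methylates histone H3, was read at 145, 165 and 172 on the embryo arrays and 4.85 in brain (1.61 ± 0.15), while its relative EZH1, named after its value was seen, was not called (0.44 ± 0.18, adjusted p = 0.105). SMARCE1, a core member of the SWI/SNF remodelling complex, was higher (1.89 ± 0.21), whereas SMARCA2, one of its ATPases, was read at 24.7, 36.9 and 35 in the embryos and 346 in brain (-2.02 ± 0.13). CBX7, a Polycomb reader protein, was read at 1.3, 0.62 and 0.58 in the embryos and 249 in brain (-2.16 ± 0.06, adjusted p = 3.46e-05).

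Many cytosolic ribosomal protein genes were higher in the embryos. Of 51 measured genes 48 were tested; 25 (52.1%) were higher and 0 lower (limma; 24 and 0 of all 51 with no filter; 40 higher and 0 lower at an unadjusted p under 0.05), and the median difference was 1.01. An offset 4 times larger would have given 11 higher calls and a 4-fold limit 1. RPL8 was read at 893, 1081 and 938 on the embryo arrays and 31.4 in brain (3.34 ± 0.19), RPS3 at 2076, 1971 and 1971 in the embryos and 462 in brain (1.96 ± 0.17), and RPS9 at 1788, 1742 and 1671 in the embryos and 401 in brain (1.93 ± 0.17). In 44 of 48 genes all 3 embryo arrays exceeded brain, against 40.6% of all 4815 genes tested. Brain was also low beside the other tissues: the median level of the list was 308 in brain, the lowest of the 10 arrays, 709 to 736 in the embryos and 389 to 883 in the other tissues. Brain was the lowest of the 7 tissues for 28 of the 48 genes (58.3%), against 12.5% of all genes. Set against the other tissues in turn, which share the embryo arrays, the median difference of the list was 0.37 for heart, 0.52 for kidney, 0.27 for liver, 0.10 for lung, 0.81 for muscle and -0.16 for spleen. The part of the low GAPDH ratio of the brain array in this difference was not tested.

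**Figure D4:**
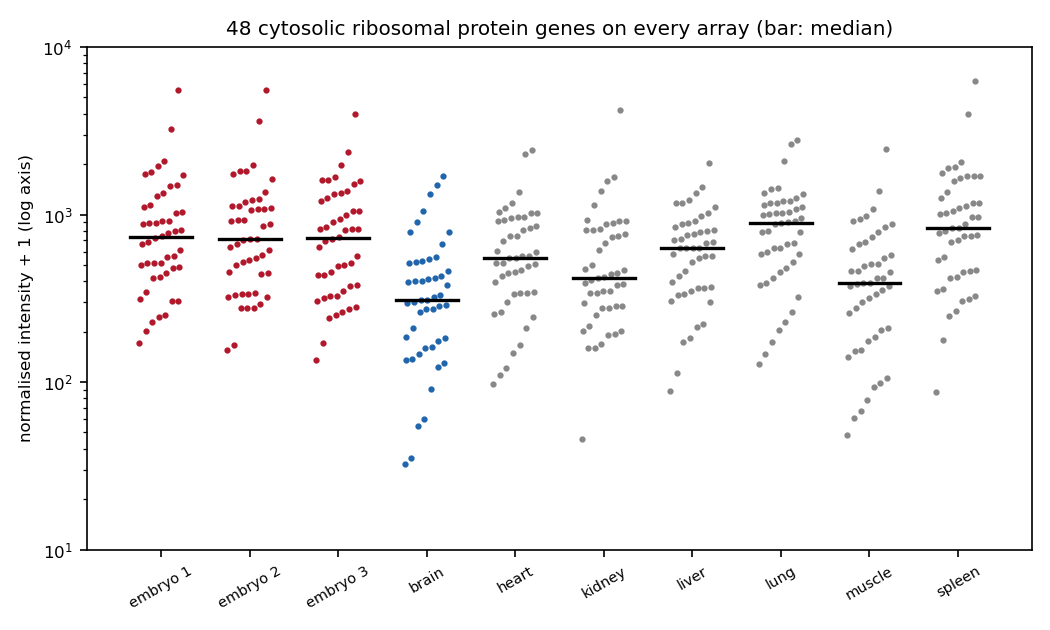
Normalised intensity + 1 (log axis) of 48 tested cytosolic ribosomal protein genes on each of the 10 arrays; points are genes and bars are medians. The brain median of 308 is the lowest, the embryo medians of 709 to 736 lie together, and spleen and lung lie above the embryos.

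Other growth machinery gave some calls, mostly higher. Ribosome biogenesis gave 3 higher (14.3%, near the 10.5% of all genes) and 0 lower of 21 tested (limma; 9 and 0 at an unadjusted p under 0.05) with a median of 0.78, among them the nucleolar proteins FBL, at 256, 298 and 168 against 7.65 in brain (1.96 ± 0.29), and NCL, at 360.0, 348 and 265 against 56.9 in brain (1.62 ± 0.22). The third, UTP18, was close to the threshold (adjusted p = 0.0456) and lost its call without the first and without the second embryo array. Proteasome genes gave 4 higher and 0 lower of 29 (limma; 17 higher and 1 lower at an unadjusted p under 0.05), a share of 13.8% that lies near the 10.5% of all genes, led by the assembly factor PSMG2, at 291, 393 and 284 against 21 in brain (2.08 ± 0.23); 2 in place of 4 were called without the second embryo array and with the deposited values. Among chaperones 8 of 35 (22.9%) were higher and 1 (2.86%) lower, against 10.5% and 16.1% of all genes. With no filter 7 of 37 measured were higher and 1 lower. The chaperonin subunits CCT6A (1.84 ± 0.29) and CCT4 (1.62 ± 0.19) fold actin and tubulin, and ST13 (1.51 ± 0.19) is a partner of HSP70. HSPH1, a heat shock protein, was lower (-1.53 ± 0.34) and lost its call without the second embryo array (adjusted p = 0.0601).

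Splicing factors gave 9 higher (17%) and 5 lower (9.43%) calls of 53 tested, against 10.5% and 16.1% of all genes, with a median of 0.34. With no filter 7 were higher and 4 lower of all 58 measured. PTBP1, which represses neuronal exons in cells other than neurons, was read at 1117, 1002 and 1191 on the embryo arrays and 123 in brain (2.6 ± 0.18, adjusted p = 0.000307). PTBP2, its neuronal relative, named after its value was seen, was read at 52.2, 54.7 and 59 on the embryo arrays and 172 in brain (-0.94 ± 0.12, adjusted p = 0.0023), just under the 2-fold limit and so not called. The spliceosome proteins SNRPA1 (1.87 ± 0.23) and SNRPB (1.85 ± 0.20) were higher. MBNL1, a regulator of exons in differentiated tissue, was read at 25.8, 16.9 and 16.3 in the embryos and 405 in brain (-2.39 ± 0.12), and every other adult tissue read it at 183 or more. SNRNP70 was lower (-1.63 ± 0.16), and SRSF7 was called lower on 1 probe set (-3.49 ± 0.22) while its other 2, both bright in the embryos, gave 0.51 ± 0.26 and 0.93 ± 0.17 and were not called. Without the third embryo array 3 splicing genes in place of 5 were lower.

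Few genes of energy metabolism were called. Of 47 tested oxidative phosphorylation genes 5 (10.6%) were higher, close to the 10.5% of all genes. Only 1 was lower (2.13%, against 16.1% of all genes). The median was 0.44, with 40 differences positive and 7 negative. UQCRC1, a core protein of complex III, had the largest difference, at 270.2, 269.6 and 209 on the embryo arrays and 6.76 in brain (2.04 ± 0.21). The ATP synthase subunits ATP5MG (1.56 ± 0.21) and ATP5PB (1.34 ± 0.20) were also higher, and NDUFA10 of complex I was lower (-1.07 ± 0.23), a call lost without the first embryo array (adjusted p = 0.0550). Without the third embryo array 8 genes in place of 5 were higher. Glycolysis gave 0 higher and 3 lower of 17 (limma; 0 higher and 5 lower at an unadjusted p under 0.05), and the 17.6% lower lies near the 16.1% of all genes. ALDOC, the aldolase of brain, was read at 28.6, 36.3 and 33.9 in the embryos and 249 in brain (-1.62 ± 0.11), whereas ALDOA, named after its value was seen, was not called (0.34 ± 0.28, adjusted p = 0.369). PFKM, the muscle phosphofructokinase (-1.28 ± 0.19), and GOT2, a mitochondrial aminotransferase (-1.26 ± 0.10), were lower. Of 14 tested lipid synthesis genes, with shares near those of all genes, 3 were lower, SQLE (-1.16 ± 0.19), INSIG1 (-1.13 ± 0.19) and TM7SF2 (-1.06 ± 0.11) of sterol synthesis and its control, and 2 higher, the fatty acid elongase ELOVL6 at 316, 333 and 294 against 25.4 in brain (2.0 ± 0.18) and NSDHL of the sterol pathway (1.46 ± 0.19). The SQLE and INSIG1 calls were lost without the second embryo array (adjusted p = 0.0515 and 0.0542).

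Transcription factors of development were called in both directions, more of them lower. Of 31 tested genes 16 were lower, 18 of the 31 having passed through brain alone, and 6 higher (15 and 6 of all 39 measured with no filter; 8 lower with a filter of 3 bright arrays). MYT1L, a factor of neuronal identity, was read at 5.69, 3.72 and 2.52 on the embryo arrays, 872 in brain and 1.69 to 10.7 elsewhere (-3.65 ± 0.11, adjusted p = 3.46e-05). NR3C1, the glucocorticoid receptor, was read at 18.7, 24.5 and 16.1 on the embryo arrays and 686 in brain (-3.06 ± 0.13), but every adult tissue read it at 354 or more, so that here the embryos were the side apart. MEF2C of neurons and muscle was read at 29.9, 26.8 and 21.9 in the embryos and 612 in brain (-2.81 ± 0.13). The higher calls were GATA6, KLF4, KLF5, TFAP2C and GATA3, given above, and SOX3 (1.2 ± 0.26). REST, known as a repressor of neuronal genes outside the nervous system and named after its value was seen, was called lower, at 258, 362 and 459 on the embryo arrays and 806 in brain (-1.05 ± 0.30, adjusted p = 0.0388), within the range of the other tissues.

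SOX2 was read on both sides. Its probe set gave 579.5, 802 and 989.7 on the embryo arrays, 374 in brain and 0.06 to 52.8 in the 6 other tissues. All 3 embryo arrays were above brain, but the difference of 0.93 ± 0.30 did not pass the test (adjusted p = 0.0574), and brain exceeded every other tissue. One further gene, KHDRBS3, an RNA binding protein, met the rule that the embryo mean and brain both exceed the 75th percentile and every other tissue at least 4-fold: it was read at 451, 348 and 276 on the embryo arrays, 480.3 in brain and 2.85 to 21.5 elsewhere (-0.38 ± 0.27, adjusted p = 0.309). Over the 10 arrays, 3 of which are embryos, the patterns most like that of SOX2 by Pearson correlation were MYCN (0.968), HMGB3 (0.959), KLRD1 (0.959) and DBN1 (0.956), given as a description. Other progenitor genes fixed for this comparison did not pass the test either. STMN1, a microtubule destabiliser, was bright on both sides, at 1181, 1152 and 1551 in the embryos and 2024 in brain (-0.63 ± 0.23, adjusted p = 0.0797). MARCKSL1 was read at 307, 305 and 142 in the embryos and 322 in brain (-0.33 ± 0.38, adjusted p = 0.51), and NES, the progenitor filament nestin, at 595, 621 and 626 in the embryos and 575 in brain (0.09 ± 0.17, adjusted p = 0.706), with every tissue between 476 and 769.

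Among probe sets with a single gene symbol, the 12 largest lower calls came mostly from outside the neural gene lists. They were ISL1, RPAP1, ARHGEF4, ARMCX6, SCYL2, POT1, MUC4, DRC4, LAMP5, NCAN, SELENOF and SYBU, with differences from -6.56 to -4.22. ISL1, a homeodomain factor of motor neurons and of some forebrain neurons, was read at 19, 18.9 and 18.7 on the embryo arrays, 8428 in brain and 0.28 to 28.6 elsewhere (-6.56 ± 0.17). RPAP1, an RNA polymerase associated protein, was read at 6224 in brain and ARHGEF4, a guanine nucleotide exchange factor, at 5534, both under 14 on all other arrays. LAMP5, a membrane protein of a class of cortical interneurons, was read at 0.63, 12.3 and 15.3 in the embryos and 2035 in brain (-4.72 ± 0.18), and SYBU, which links vesicles to kinesin, at 6.54, 15.9 and 15.9 in the embryos and 1491 in brain (-4.22 ± 0.15).

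The order of these genes depended on the normalisation: with the values as deposited the difference was -7.31 for ARHGEF4 and -7.07 for ISL1. In the deposited values ISL1, RPAP1, ARHGEF4, ARMCX6 and SCYL2 stood together between 10379 and 11735 in brain, with POT1 at 5071. ISL1, RPAP1, ARMCX6 and SCYL2 had no other probe set of the same symbol. ARHGEF4, POT1, a telomere protein, and MUC4, a mucin, had a second one that did not share the signal. It read 82.0, 109 and 2.61 in brain, respectively, and was not tested. The signal of these genes thus rests on 1 probe set each on the single brain array. Second probe sets of SNAP25, GNAO1, GPM6A and KLC1 were called lower as well, while the others of SRSF7 were not called. Probe sets at 1000 or more on 1 array and under 100 on all others numbered 21 for brain, 49 for liver, 14 for lung, 10 for muscle, 5 for kidney, 3 for heart and 1 for spleen; 2 had that pattern on all 3 embryo arrays together. The brain set also held SNAP25, GNAO1, SLC12A5 and OPCML, described above, and ASTN1, which guides young neurons along glia, at 0.49, 0.71 and 0.58 on the embryo arrays and 1043 in brain (-3.96 ± 0.10). Such probe sets are those that a filter of 3 bright arrays removes.

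**Figure D5:**
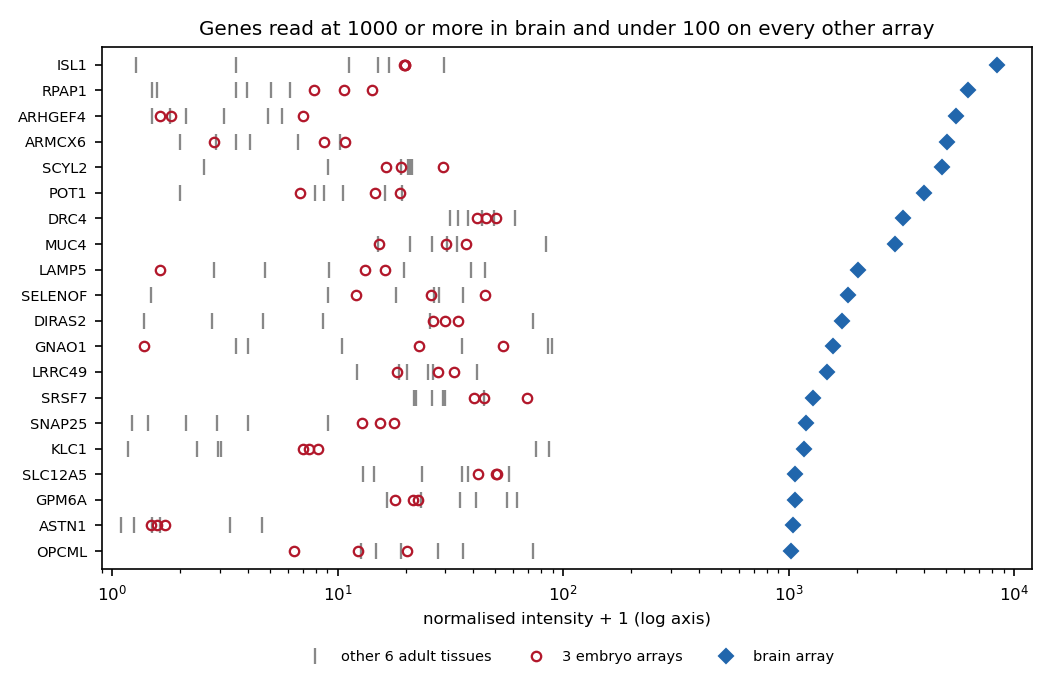
Normalised intensity + 1 (log axis) on every array for the 20 probe sets with a single gene symbol that read 1000 or more in brain and under 100 on all others; open circles are embryos, the diamond is brain and ticks are the other 6 tissues. Brain lies from 1021 for OPCML to 8428 for ISL1, with no other array above 100.

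The largest higher calls, beside SFN, KRT8, NTNG1, RPL8, MELK and POU5F1P3, were ANXA2P2, DLEC1, SINHCAF, SLC22A8, ENPEP and CLIC1. ANXA2P2 is annotated as a pseudogene that shares sequence with annexin A2, so the 2 cannot be told apart; it was read at 4762, 3989 and 5038 on the embryo arrays, 183 in brain and 297 to 1471 elsewhere (4.2 ± 0.21). DLEC1 had 3 probe sets in accord, with differences of 3.57 ± 0.18, 3.61 ± 0.20 and 3.5 ± 0.24, and was under 21 in every adult tissue. ENPEP, a membrane aminopeptidase of kidney, was read at 881, 796 and 793 on the embryo arrays and 19.3 in brain (3.31 ± 0.18), with kidney at 965. SINHCAF, a subunit of a histone deacetylase complex, was read at 957, 1008 and 935 in the embryos and 27.9 in brain (3.39 ± 0.17), and CLIC1, a chloride channel protein, at 1215, 982 and 967 in the embryos and 54.4 in brain (3.16 ± 0.20). SLC22A8, an organic anion transporter, was read at 715, 617 and 584 in the embryos and 0.5 in brain (3.31 ± 0.20).

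Probe sets of 1 gene often disagreed, which bounds how far a single call names a gene. Of 901 genes with several tested probe sets 451 had any call; 135 of these had all probe sets called one way, 293 had called and not called ones, and 23 had calls in both directions. Among the 23 were the cyclin CCNA2, at 2.31 ± 0.18 and -1.79 ± 0.18, the GTPase CDC42, and the receptor FGFR1, at -2.1 ± 0.09 and 1.5 ± 0.17. The calls given above for SFN, DLEC1, ATP1B1, SNAP25, GNAO1 and NEFL held on every tested probe set of the gene.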

How the data were processed

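RNA of pooled IVF embryos (3 arrays) and of 7 adult tissues (1 array each) was measured on 10 arrays of a human Affymetrix design; groups came from the titles. The values deposited by the authors are linear intensities, 1 for each probe set on each array; the sources used here do not state how they were scaled. The table lists 22283 probe sets; 12064 were blank and 33 of the 10219 with values were controls. Of the 10186 analysed, 8847 had 1 human symbol in the platform annotation, 479 several and 860 none, and genes were named only from single symbols; 4560 of 4815 tested genes (94.7%) share a symbol with the bovine RefSeq table. No sequences or coordinates are given.

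All 10 arrays were quantile normalised together, so that a true difference in total signal would not show. The offset of 71 was set from the 25th percentiles of deposited intensity, as their median. Differences were fitted with limma 3.58.1 in R 4.3.3 (two-sided; eBayes was run with both its trend and its robust option) on 3 embryo arrays and 1 brain array, with 2 residual degrees of freedom before moderation, and p-values were adjusted over all 6876 tested probe sets. The probe set with the highest mean over both sides stood for a gene. The number of arrays limits the precision. The method was tested on simulated data. There the brain array was given the spread of the embryo arrays, so the assumption that it varies like them was not tested.

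Named genes were the 12 largest calls each way, up to 3 called genes each way of each of 31 lists, the genes bright in embryos and brain alone, a fixed set that included the markers, and the patterns most like SOX2; LIN28A, SOX3, ASTN1, CCNA2, CDC42, FGFR1 and the genes said so in the text were named after their values were seen. The members and lists were chosen with earlier results of these data known. Alternatives changed the normalisation, the offset, the filter, the moderation, the arrays in the fit, the fold limit and the probe sets per gene, and left out each embryo array. Plots used matplotlib 3.10.9 (Python 3.11.15).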

Additional observations from a re-analysis of the deposited data

How the results depend on the processing

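Against 848 higher and 1108 lower probe sets, the counts moved by over 1.5 times in these settings: 245 and 435 with an offset 4 times larger, which shrinks the differences of dim probe sets; 160 and 386 with a 4-fold limit; 1316 higher with no fold limit; 504 higher with 1 probe set per gene, where fewer are tested; and 580 lower where at least 3 of 10 arrays had to be above the median, where probe sets bright in brain alone were not tested. Without one embryo array, counts ran from 575 to 958 higher and from 940 to 1122 lower, the fewest without replicate 2. With the values as deposited the median of all genes shifted by -0.12, 723 were higher and 1261 lower, and NES turned from 0.085 to -0.059, not called either way. The other settings stayed within 1.5 times of both counts. With no filter, the median over all measured genes of a list was -1.68 for synaptic vesicles and release. It was -0.13 for receptors, -1.12 for ion channels and for peptides and granules, and -1.62 for astrocytes. For replication it was 0.62 and for ribosome biogenesis 0.56, against 0.05 over all genes. Of 122 called genes named, 72 kept their call under all 16 alternatives and 84 under all but the 4-fold limit; 0 reversed, and the 38 with a call lost at 2-fold lost it mostly with the larger offset. No paired analysis was possible because brain has a single array. The single brain array leaves its own spread unmeasured, and dim probe sets may reflect poor matches between bovine transcripts and human probes.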
